A study of Mus musculus with 4 samples.

Results

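The complement and coagulation genes described here are 43 mouse genes of the blood cascades, taken by symbol from the gene table of a single-cell RNA study of the liver. Of the 43 symbols, 43 were found, each matching 1 gene. The study profiled primary liver cells of 4 mice with the 10x Genomics 3' chemistry, 1 mouse and 1 library for each genotype. The libraries are labelled WT (wildtype), YAPKO (Yap deleted), TAZKO (Taz deleted) and DKO (both deleted). The deletions come from floxed Yap and Taz alleles cut by a Cre recombinase under the albumin promoter, so that they take place in hepatocytes (HCs) and biliary epithelial cells (BECs) and leave the genes of the other liver cells in place. The mice were untreated, and their age is not in the labels. HCs and the other liver cells were isolated separately and mixed before loading, so that the numbers of cells of each type follow the mixing as well as the liver.

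Complement is a set of blood proteins that mark and puncture foreign or damaged cells: recognition proteins start a chain of proteases, these split C3, and the terminal components form a pore in the target membrane. Coagulation is a second chain of proteases, which ends when thrombin turns fibrinogen into fibrin, and it is held in check by anticoagulants on the vessel wall and in plasma. The liver is known as the main source of most of these plasma proteins, while the recognition protein C1q comes from macrophages and factor VIII from endothelium.

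A barcode was kept when 500 to 6000 genes were seen in it and when mitochondrial transcripts made up no more than 10% of its UMIs (unique molecular identifiers, 1 per captured RNA molecule). This left 7155 in WT, 6275 in YAPKO, 8638 in TAZKO and 8294 in DKO. Their summed UMIs were 52408791 in WT, 63925784 in YAPKO, 42534854 in TAZKO and 69637982 in DKO, and their median UMIs per cell were 4618 in WT, 7337 in YAPKO, 3555.5 in TAZKO and 5952.5 in DKO. Between 9 and 26 kept barcode sequences were shared by each pair of libraries. Cells were clustered without the 43 members and without 54 other genes of the pathways, and clusters were named from marker genes, so that HC below means an HC-like cluster and likewise for endothelial cells (ECs), Kupffer cells (KCs, the resident macrophages of the liver), stellate cells (HSCs), monocytes and macrophages other than KCs (MACs), neutrophils (NEU), B, T and NK cells, and conventional (CDC) and plasmacytoid (PDC) dendritic cells. Clusters 9, 14, 16, 17 and 20, with 1000, 488, 248, 190 and 42 cells, stayed unnamed and entered no comparison. For cluster 9 the best list was that of KCs, with 8 of 8 markers detected, and 61.5% of its cells had high doublet scores. The KC levels below leave these cells out. HCs numbered 2209 in WT, 1215 in YAPKO, 3038 in TAZKO and 3010 in DKO. With 1 library per genotype there are no replicates: no test was possible, intervals cover counting error alone, and a genotype cannot be told apart from its mouse or its library.

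Levels are given as CPM, the UMIs of a gene per 1000000 UMIs of the same cells. This UMI-based scale carries no length. The labels were checked first on the deleted genes in HCs. Yap1 stood at 21.5 CPM in WT, 4.74 in YAPKO, 47.2 in TAZKO and 4.54 in DKO. Wwtr1, the gene of TAZ, stood at 5.22 CPM in WT, 13.2 in YAPKO, 2.87 in TAZKO and 2.38 in DKO. Yap1 was thus low in the libraries labelled as lacking YAP and Wwtr1 in those labelled as lacking TAZ. The chemistry counts the 3' end of a transcript, which a recombined allele may still make, so that the check is limited.

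HCs made most of the factors. Of the 43 members, 29 had their highest mean CPM over the libraries in HCs, and for these 29 HCs were the highest type in each of the 4 libraries. KCs were highest for 7 members (C1qa, C1qb, C1qc, C2, C4b, C6 and Cfp), ECs for 3 (F8, Pros1 and Thbd), and HSCs, MACs, CDCs and BECs for 1 each (Masp1, F13a1, Vwf and F3). For the members highest in HCs, the mean ran from 23.8 CPM for F11 (coagulation factor XI) to 5456 CPM for Fgb, with a median of 319.

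**Figure D1:**
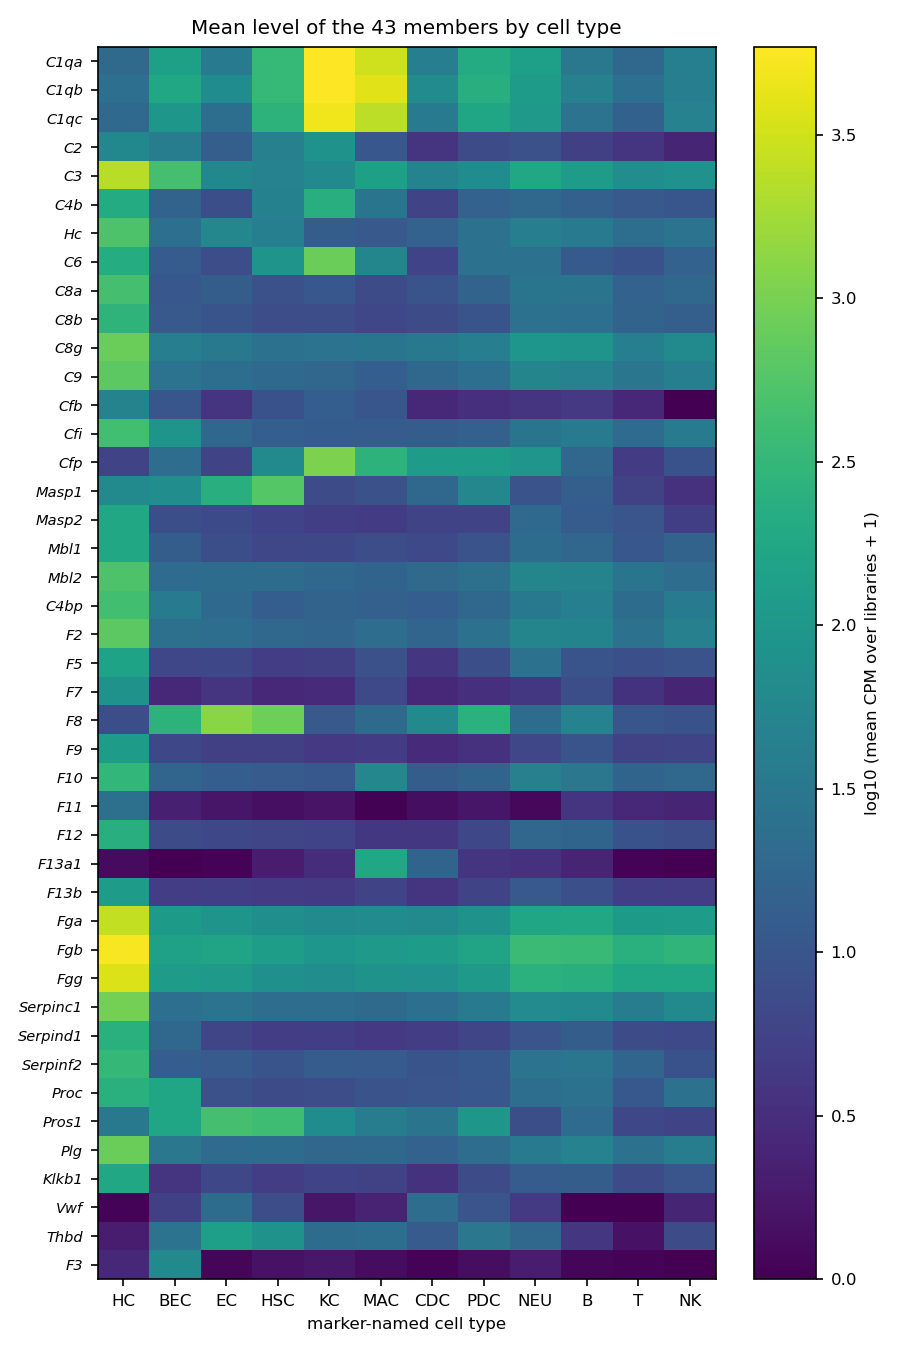
Mean level of each of the 43 members (vertical axis) in 12 marker-named cell types (horizontal axis), as log10 of the mean CPM over the libraries plus 1. The fibrinogen gene Fgb reached 5456 CPM in HCs, and C1qa reached 5855 CPM in KCs.

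RNA set free from broken HCs reaches droplets of other cells, and doublets add to it. The level of each member in a further type was therefore compared with the share of RNA that the marker genes of its source type showed in that type, and called above this background only where its lower counting bound was over 3 times the median share in every library with at least 20 cells of the type. Of 470 pairs of member and further type, 30 passed, a count that depends on the settings: it was 10, out of fewer pairs, with the cell limits read as UMIs, 47 with cells assigned by marker score and 14 with the highest marker share in place of the median. Members highest in HCs gave 3 of their 319 pairs: Cfb in KCs and MACs, and Proc in BECs. HC markers had a median share in B cells of 9.75% in WT, 5.90% in YAPKO, 11.6% in TAZKO and 12.3% in DKO, so that a fibrinogen UMI in a B cell is no sign of fibrinogen made there. Where the highest type was MAC, CDC or BEC, the background was that of HCs, since no source list was fixed for those types. HCs held means of only 0.105 CPM of Vwf and 0.286 CPM of F13a1, so that few UMIs were enough to pass. The pairs of Vwf with BECs, ECs, HSCs, KCs and PDCs and of F13a1 with CDCs, which passed, thus do not show which cells make them. C2 and C4b were compared with KC RNA alone, although HCs held them as well, so that HC RNA was not set against their pairs. Those that passed include both genes in T cells and ECs.

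C1q, which binds antibody and dying cells and starts the classical pathway, was made by the macrophages. Its chains come from neighbouring genes within 18.7 kilobases of chromosome 4. C1qa stood at 5647 CPM in WT, 6568 in YAPKO, 4903 in TAZKO and 6304 in DKO in KCs. C1qb stood at 6308 CPM in WT, 7244 in YAPKO, 3096 in TAZKO and 6646 in DKO and C1qc at 4903 CPM in WT, 5738 in YAPKO, 3469 in TAZKO and 5098 in DKO. C1qb was low in TAZKO, where its log2 ratio to WT was -1.25 (95% counting interval -1.27 to -1.22). Ratios are given relative to the median ratio of all genes with at least 100 UMIs in the type over the 4 libraries, which in KCs of TAZKO was 0.22 before centring, and without centring the C1qb ratio was -1.03. C1qa and C1qc in TAZKO stayed short of 2-fold, at -0.42 and -0.72. KCs joined cluster 2 with cluster 15, which was led by genes of cell division such as Top2a and Mki67. Cluster 15 held 149 KCs in WT, 101 in YAPKO, 103 in TAZKO and 104 in DKO, beside 486, 502, 1020 and 574 in cluster 2. The C1q ratios were not read in each cluster alone.

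The chains were also unequal within libraries. For every 100 C1qa UMIs, KCs held C1qb UMIs of 112 in WT, 110.3 in YAPKO, 63.1 in TAZKO and 105 in DKO. TAZKO was the library with fewer C1qb than C1qa UMIs in KCs. MACs, whose C1q was above the background of KCs for the 3 chains, had C1qb at 4122 CPM in WT, 4558 in YAPKO, 1951 in TAZKO and 5026 in DKO, with a log2 ratio of -1.26 (95% counting interval -1.35 to -1.17) in TAZKO. C1qb was low in TAZKO in both macrophage types. HCs, where the C1q chains were at background, showed C1qb at 26.1 CPM in WT, 26.3 in YAPKO, 13.9 in TAZKO and 23.3 in DKO, again lowest in TAZKO.

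The other members highest in KCs were of several roles. C6 is a component of the membrane pore and stood at 764 CPM in WT, 882 in YAPKO, 1109.98 in TAZKO and 591 in DKO in KCs. It was highest in TAZKO and lowest in DKO, short of 2-fold from WT in each library. HCs held C6 as well, above the background of KCs, at 185 CPM in WT, 266 in YAPKO, 119.9 in TAZKO and 279 in DKO. In HCs C6 was low in TAZKO, with a log2 ratio of -1.22 (95% counting interval -1.30 to -1.13), and of -1.29, -1.41 and -1.07 in the HC clusters 1, 3 and 5, but of -0.62 without centring. Properdin, the product of Cfp, stabilises the enzyme of the alternative pathway and stood at 1069.96 CPM in WT, 1032 in YAPKO, 1066 in TAZKO and 1008 in DKO in KCs. These levels lay close together. Cfp was also above the background of KC RNA in CDCs, at a mean of 119 CPM. C4b and C2, which form the C3-splitting enzyme of the classical and lectin pathways, came from KCs and HCs alike. C4b stood at 289.7 CPM in WT, 281 in YAPKO, 210.4 in TAZKO and 141 in DKO in KCs and at 189.9 CPM in WT, 291 in YAPKO, 199 in TAZKO and 142 in DKO in HCs. DKO had the lowest C4b in both types, and in KCs its log2 ratio was -1.06 (95% counting interval -1.17 to -0.95). Reads of C4b and its near-identical neighbour C4a can be hard to assign, which makes the C4b levels uncertain. C2 stood at 75.5 CPM in WT, 64.2 in YAPKO, 128 in TAZKO and 62.01 in DKO in KCs and at 52.9 CPM in WT, 71.2 in YAPKO, 56.2 in TAZKO and 44.8 in DKO in HCs. Its highest KC level was in TAZKO, with no ratio past 2-fold.

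Factor XIII, which cross-links fibrin, has its catalytic chain from F13a1 and its carrier chain from F13b. F13a1 was made by MACs, at 167 CPM in WT, 326 in YAPKO, 160.4 in TAZKO and 74.8 in DKO, and F13b by HCs, at 80.1 CPM in WT, 112 in YAPKO, 160.2 in TAZKO and 119 in DKO. F13a1 was high in YAPKO and low in DKO, with log2 ratios of 1.01 (95% counting interval 0.79 to 1.23) and -1.21 (95% counting interval -1.49 to -0.93), and without centring the YAPKO ratio fell short of 2-fold at 0.96. MACs differed between libraries in number, with 119 cells in WT, 430 in YAPKO, 108 in TAZKO and 460 in DKO, and in kind. The monocyte marker Ly6c2 stood at 559.7 CPM in WT, 350.2 in YAPKO, 592 in TAZKO and 110.2 in DKO. Gpnmb, a marker of lipid-associated macrophages, stood at 0.904 CPM in WT, 259.8 in YAPKO, 285 in TAZKO and 146 in DKO. Ly6c2 was lowest in DKO and Gpnmb was near 0 in WT alone. The monocyte markers did not move together: Chil3 stood at 832 CPM in WT, 423 in YAPKO, 132 in TAZKO and 83.5 in DKO and Cx3cr1 at 342 CPM in WT, 337 in YAPKO, 451 in TAZKO and 411 in DKO. Chil3 was low in TAZKO, where Ly6c2 was highest, and Cx3cr1 was higher in DKO than in WT. The part of this mix of cells in the F13a1 levels was not tested.

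ECs, which line the vessels, were highest for 3 members. F8, the cofactor of the protease that activates factor X, stood at 1383 CPM in WT, 1383 in YAPKO, 946 in TAZKO and 1242 in DKO in ECs. It was lowest in TAZKO, at a log2 ratio of -0.72 (95% counting interval -0.77 to -0.68), short of 2-fold. After thinning each cell to 1000 UMIs, F8 was seen in 70.3% of WT ECs (median depth 5097 UMIs) and 1.17% of WT B cells (median depth 2944). Unthinned, the shares were 94.8% and 3.03%. Pros1, the gene of the anticoagulant protein S, stood at 432 CPM in WT, 428 in YAPKO, 507 in TAZKO and 436 in DKO in ECs. These levels lay within a narrow range, and TAZKO was the highest. Pros1 was also above the background of EC RNA in HCs and KCs, at means of 32.9 and 67.0 CPM.

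Of the 3 members highest in ECs, Thbd differed most between libraries. Its product thrombomodulin holds thrombin on the vessel wall and turns it toward activating protein C. Thbd stood at 77.7 CPM in WT, 170.02 in YAPKO, 127 in TAZKO and 159.8 in DKO in ECs. WT was the lowest library, and the log2 ratios were 1.08 (95% counting interval 0.96 to 1.21) in YAPKO, 0.53 in TAZKO and 0.98 (95% counting interval 0.85 to 1.11) in DKO. YAPKO was thus past 2-fold and DKO just short of it, and without centring DKO was past it at 1.04. The Cre driver is not known to act in ECs, so that Yap and Taz were not deleted there by design.

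Thbd was also read within EC subclusters. In the EC subcluster with pericentral markers (subcluster 0, led by Rspo3 and Wnt9b) Thbd stood at 105 CPM in WT, 221 in YAPKO, 176 in TAZKO and 207 in DKO. In the subcluster with periportal markers (subcluster 1, led by Ntn4) it stood at 39.3 CPM in WT, 115 in YAPKO, 70.3 in TAZKO and 101 in DKO. WT was the lowest library in both. In the subcluster with large-vessel markers (subcluster 7) Thbd stood at 167 CPM in WT, 263 in YAPKO, 454 in TAZKO and 403 in DKO. WT was the lowest there too, but TAZKO was the highest, and the interval of the YAPKO ratio crossed 0, at 0.53 (95% counting interval -0.13 to 1.24). These subclusters were taken alone after the data had been seen. Von Willebrand factor, the carrier of factor VIII and a tether for platelets, was concentrated in subcluster 7, where the mean of Vwf was 428 CPM, against at most 55.1 in the other EC subclusters. Over the ECs, Vwf stood at 14.1 CPM in WT, 34.05 in YAPKO, 13.95 in TAZKO and 20.6 in DKO. Its log2 ratio was 1.22 (95% counting interval 0.93 to 1.52) in YAPKO, but within subcluster 7 Vwf stood at 383 CPM in WT, 483 in YAPKO, 420.1 in TAZKO and 425 in DKO, where the counting intervals of the libraries overlapped. In the periportal subcluster 1 the YAPKO ratio of Vwf was 1.59 (95% counting interval 0.76 to 2.49), past 2-fold on few UMIs, and in the pericentral subcluster 0 it was 0.02. TAZKO and DKO had ratios of -0.34 and 0.97 in subcluster 1 and of -2.10 and -0.90 in subcluster 0, the TAZKO ratio there resting on 12 TAZKO UMIs. Subcluster 7 held 25 cells in WT, 41 in YAPKO, 26 in TAZKO and 27 in DKO. By mean CPM CDCs were just above ECs for Vwf, with 20.9 against 20.7, which is no clear order, and CDC levels were 22.03 CPM in WT, 12.6 in YAPKO, 26.8 in TAZKO and 22.1 in DKO.

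**Figure D2:**
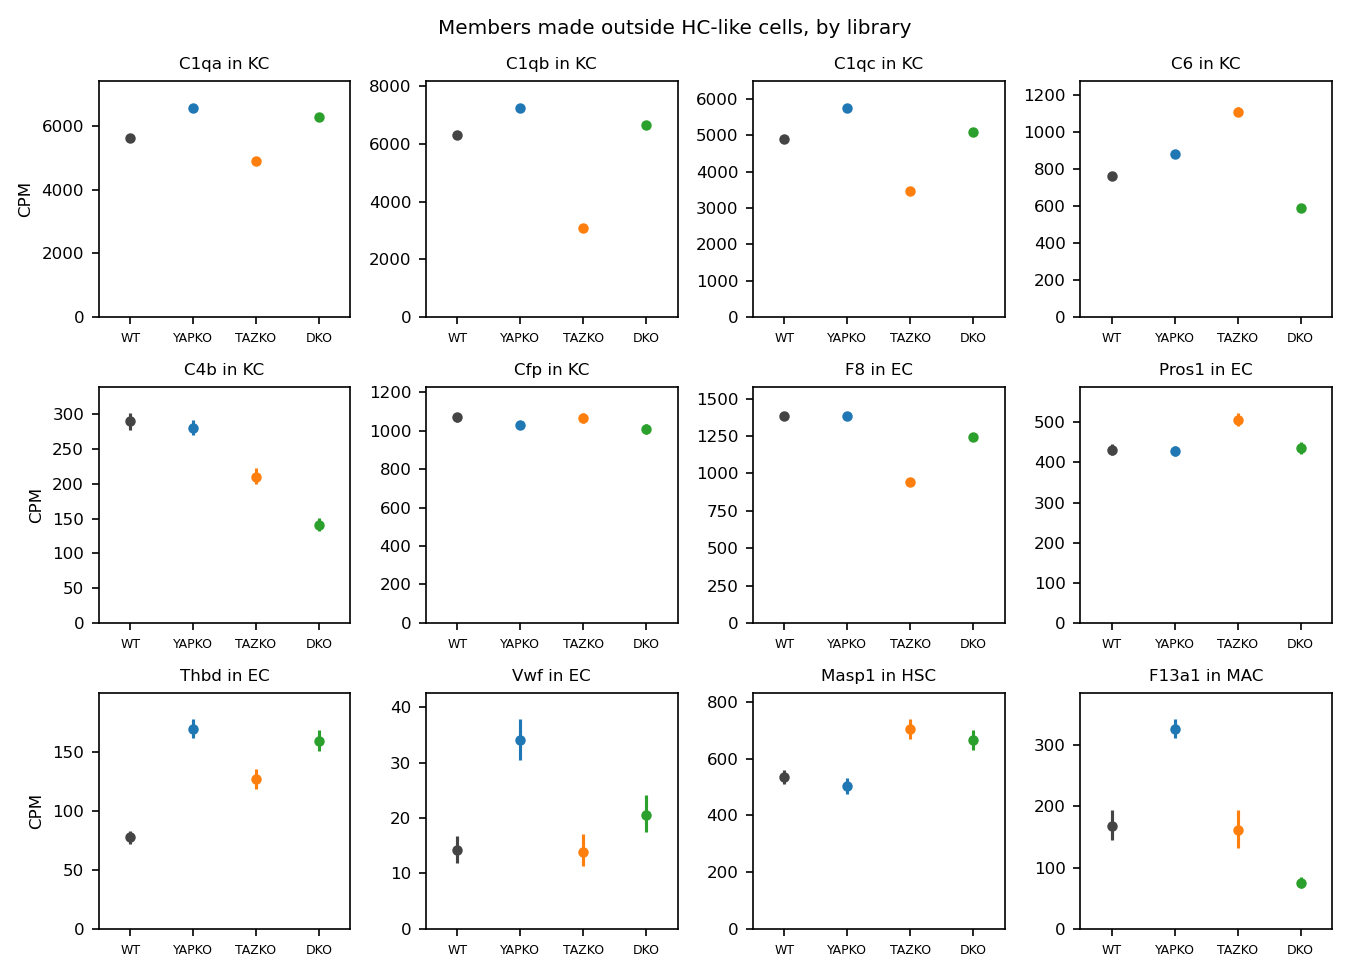
Level in CPM (vertical axes, from 0) of 12 members in the cell type named above each panel, for each library (horizontal axes), with bars for the 95% counting interval. C1qb in KCs fell to 3096 CPM in TAZKO, and Thbd in ECs was lowest in WT at 77.7 CPM.

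Masp1, a protease that works with the lectins binding microbial sugars, was highest in HSCs, at 536 CPM in WT, 504 in YAPKO, 704 in TAZKO and 665 in DKO, and was also above the background of HSC RNA in ECs, HCs and PDCs. In PDCs the median share of EC markers was 23.6% in WT, 23.4% in YAPKO, 15.5% in TAZKO and 22.3% in DKO, and with Masp1 at a mean of 233 CPM in ECs, the 54.5 CPM of PDCs is no sign that they make it. In HSCs, YAPKO was the lowest and TAZKO the highest library, with no ratio past 2-fold. The HSC cluster carried EC RNA: the median share of 8 EC markers, each with UMIs, was 76.2% in WT, 83.6% in YAPKO, 65.3% in TAZKO and 61.4% in DKO, and the markers summed to 14249 CPM in WT, 15061 in YAPKO, 11799 in TAZKO and 11169.7 in DKO. When the cells of the top 8% of doublet scores were left out and the rest clustered anew, the HSC cluster held fewer cells and Masp1 was 739.8 CPM in WT, 700.2 in YAPKO, 1035 in TAZKO and 892 in DKO. Masp1 also rose in each library with the mitochondrial limit at 20% or without correction by library, where doublets were kept. The HSC cluster held fewer cells there too, and its EC share in WT was 61.9% and 61.1%. By marker score Masp1 rose to 656 CPM in WT, 615 in YAPKO and 805 in TAZKO, while DKO stayed at 665. With members and pathway genes allowed among the variable genes it rose in each library, to 577, 558, 781 and 708 CPM. At resolution 0.8 it stayed near the main values, at 537, 508, 706 and 665 CPM, and with the cell limits read as UMIs it was lower in each library. The part of the cells left out was not tested. F3, the tissue factor that starts coagulation, was made by BECs, at 62.1 CPM in WT, 84.7 in YAPKO, 43.4 in TAZKO and 63.4 in DKO. The BECs numbered 54 in WT, 32 in YAPKO, 28 in TAZKO and 7 in DKO, and the 5 F3 UMIs of DKO allow no comparison. BECs also held Proc, the gene of the anticoagulant protein C, at 166 CPM on average over the 3 libraries with at least 20 BECs, beside 244 CPM in HCs.

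In HCs, the question was how the factors made there differ between each deletion and WT. In DKO the fibrinogen chains had the lowest ratios of the members, and in YAPKO and TAZKO the lowest ratio was that of 1 of these chains. Relative to the median gene, 1 member in YAPKO, 8 in TAZKO and 7 in DKO were at least 2-fold lower than in WT, of 40 that passed the filter on low counts, and none of the 40 was at least 2-fold higher. Of all 11042 genes in HCs, 4.84% in YAPKO, 10.7% in TAZKO and 10.1% in DKO were at least 2-fold off in either direction, with 1.92%, 6.1% and 4.6% lower and 2.92%, 4.58% and 5.47% higher. On this scale the share of members lower was above that of all genes in TAZKO and DKO. Without centring 0, 1 and 4 of the 40 were lower, where 0.706%, 1.70% and 2.11% of all genes were, and 2 were higher in TAZKO, where 21.5% of all genes were. The 8 in TAZKO include C1qb, which is at background in HCs. With the cell limits read as UMIs in place of genes, 6, 13 and 12 of 38 were lower and 1, 1 and 2 higher. The share of all genes under that reading is not given, so these counts are not compared with it. The median log2 ratio of the members was -0.23 in YAPKO, -0.49 in TAZKO and -0.52 in DKO. That direction depends on the scale: the median gene itself had a ratio of 0.43, 0.59 and 0.46, so that without centring the medians of the members were 0.20, 0.10 and -0.06, and the sign flips in YAPKO and TAZKO.

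HCs formed 3 clusters, and these differ in quality and in share between libraries. Cluster 1 (led by Gstm3 and Gsta2) held 72.0% of HCs in WT, 54.4% in YAPKO, 43.3% in TAZKO and 68.9% in DKO, with median depths of 1914, 3532, 1264 and 4600 UMIs. Cluster 5 (led by Apoa4, Cyp2f2 and Apob) held 14.5%, 31.6%, 15.3% and 21.1% of HCs but 66.2%, 66.9%, 56.7% and 47.7% of their UMIs, with median depths of 41864, 30221.5, 13315.5 and 23906 UMIs. Cluster 3 (led by Cyp2c29 and Cyp2e1) held the rest, with median depths of 2365.5, 7920 and 2190 UMIs in WT, YAPKO and TAZKO and 14300 in DKO. The median mitochondrial share of cluster 1 was 0.110% in WT, 0.120% in YAPKO, 0.275% in TAZKO and 0.0871% in DKO, against 4.07%, 4.69%, 4.75% and 3.83% in cluster 5. In cluster 3 it was 0.141% in WT, 4.36% in YAPKO, 0.780% in TAZKO and 4.67% in DKO, so that this cluster differed most in quality between libraries. In cluster 1 alone, 28 members in YAPKO, 18 in TAZKO and 32 in DKO of 38 were at least 2-fold lower, where 9.66%, 17.1% and 11.1% of all genes were, and 4 in TAZKO were at least 2-fold higher, where 19.8% of all genes were. In cluster 3 alone the counts lower were 3, 9 and 7 of 39, where 6.26%, 7.17% and 7.12% of all genes were. In cluster 5 alone the counts were 0, 3 and 4 of 39, where 1.45%, 4.52% and 3.89% of all genes were. The count over the list thus depended on the cluster, and the part of depth and of the mitochondrial share in this was not tested.

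Fibrinogen is a protein of paired Aα, Bβ and γ chains, and its genes Fga, Fgb and Fgg lie within 42.1 kilobases of chromosome 3. Fga stood at 3366 CPM in WT, 3397 in YAPKO, 2986 in TAZKO and 880.3 in DKO in HCs. Fgb stood at 9526 CPM in WT, 6679 in YAPKO, 3568 in TAZKO and 2049 in DKO and Fgg at 6051 CPM in WT, 3916 in YAPKO, 3336 in TAZKO and 1303 in DKO. DKO was the lowest library for each chain, with TAZKO next for each of them, and WT was the highest for Fgb and Fgg. In DKO the log2 ratios were -2.40 (95% counting interval -2.42 to -2.38) for Fga, -2.68 for Fgb and -2.68 for Fgg. In TAZKO they were -0.77, -2.01 and -1.45, and in YAPKO -0.42, -0.94 and -1.06. Without centring the DKO ratios were -1.93, -2.22 and -2.22, past 2-fold on either scale, while in TAZKO Fgb alone stayed past it, at -1.42, and in YAPKO none of the chains did.

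The low fibrinogen of DKO was seen in each HC cluster. In cluster 5, Fga stood at 4172 CPM in WT, 4130.2 in YAPKO, 3542 in TAZKO and 1280.2 in DKO. Fgb stood at 10089 CPM in WT, 7809 in YAPKO, 4520.3 in TAZKO and 2528 in DKO and Fgg at 6172 CPM in WT, 4533 in YAPKO, 4305 in TAZKO and 1679 in DKO in the same cluster. YAPKO differed between clusters, with log2 ratios for Fga, Fgb and Fgg of -2.27, -1.95 and -2.33 in cluster 1, 0.02, -1.05 and -1.05 in cluster 3, and -0.32, -0.67 and -0.75 in cluster 5. With the differences in quality within clusters, above all in cluster 3, not tested, the DKO ratios for Fga, Fgb and Fgg were -3.51, -3.32 and -3.71 in cluster 1, -1.54, -2.54 and -2.44 in cluster 3, and -2.12, -2.42 and -2.30 in cluster 5. The TAZKO ratios of Fgb were -2.97, -2.24 and -1.58 in clusters 1, 3 and 5. The clusters were taken alone after the data had been seen.

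**Figure D3:**
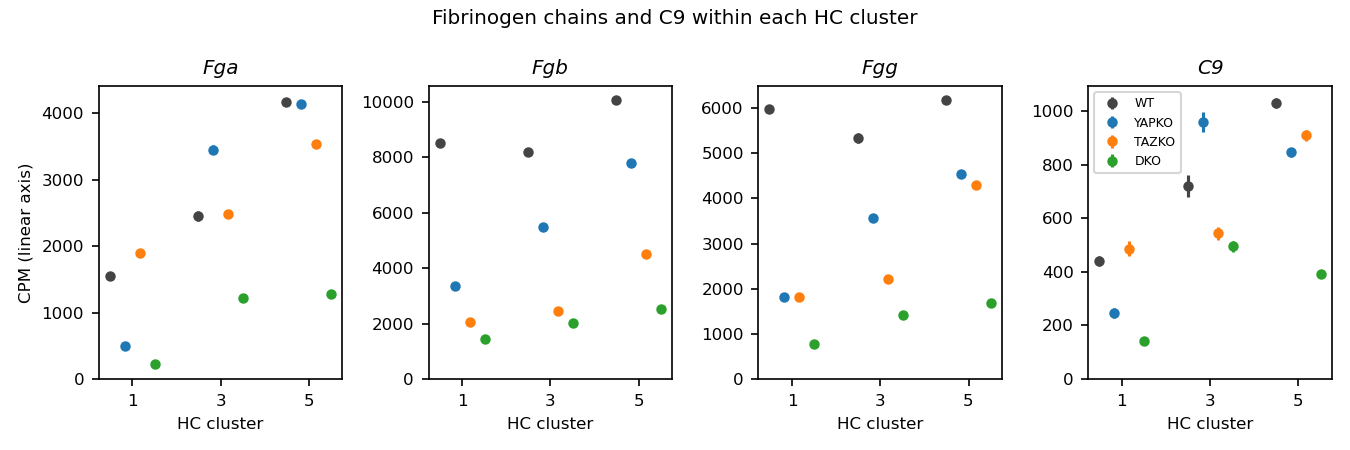
Level in CPM (vertical axes, from 0) of Fga, Fgb, Fgg and C9 in the HC clusters 1, 3 and 5 (horizontal axes), with 1 point per library and bars for the 95% counting interval. DKO is the lowest library in each cluster and panel, for example at 2528 CPM for Fgb in cluster 5, where WT is at 10089.

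Fibrinogen was also read against albumin (Alb), the most abundant HC marker, within the same cells. In HCs, Fgb UMIs per 100 Alb UMIs were 23.6 in WT, 16.8 in YAPKO, 7.56 in TAZKO and 6.08 in DKO. In B cells, where Fgb was not above the background of HC RNA, they were 29.4 in WT, 12.97 in YAPKO, 6.39 in TAZKO and 7.41 in DKO, and in T cells 33.2 in WT, 16.02 in YAPKO, 6.45 in TAZKO and 5.89 in DKO. WT was the highest and YAPKO the next in each of these types, with TAZKO and DKO low. Fga UMIs per 100 Alb UMIs in B cells were 9.77 in WT, 5.79 in YAPKO, 6.60 in TAZKO and 2.86 in DKO, with DKO the lowest. In HCs they were 8.35 in WT, 8.55 in YAPKO, 6.33 in TAZKO and 2.61 in DKO and in T cells 9.01 in WT, 8.82 in YAPKO, 6.70 in TAZKO and 3.11 in DKO, so that YAPKO lay near WT there and was low in B cells alone of these 3 types. The chains were also unequal: per 100 Fgb UMIs, HCs held Fga UMIs of 35.3 in WT, 50.9 in YAPKO, 83.7 in TAZKO and 42.96 in DKO, so that Fgb was low against Fga above all in TAZKO. Alb is itself a measured gene that may differ between libraries.

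**Figure D4:**
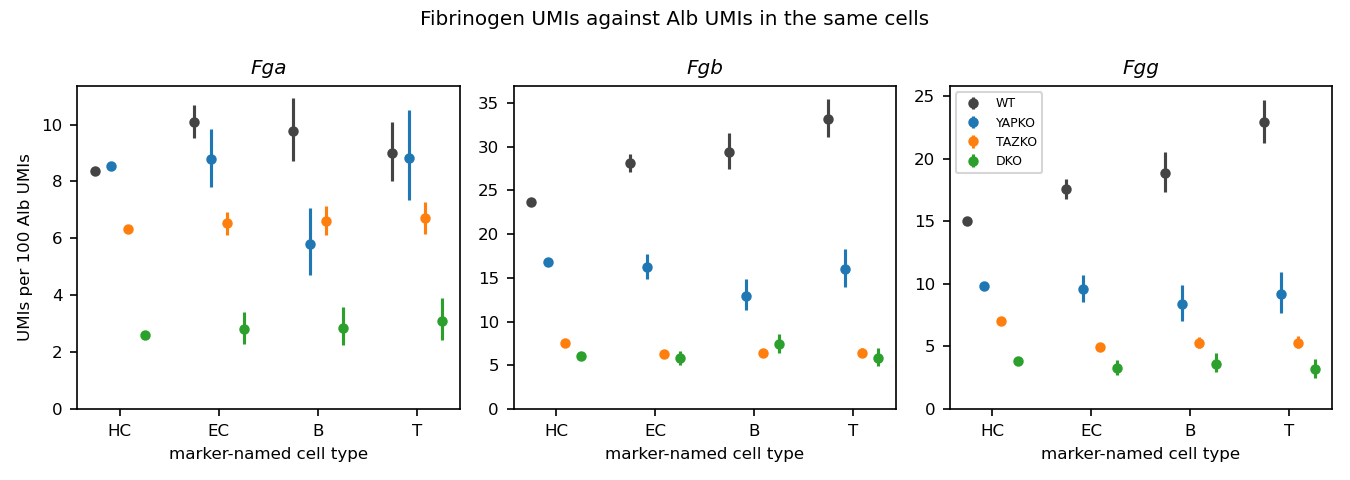
UMIs of Fga, Fgb and Fgg per 100 Alb UMIs of the same cells (vertical axes, from 0) in HCs, ECs, B and T cells (horizontal axes), with 1 point per library and bars for the exact 95% interval. For Fgb, WT is at 23.6 in HCs and at 29.4 in B cells.

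Since the fibrinogen genes were low together in DKO, the 250 bases before each of their RefSeq starts are shown, build GRCm38.p6, where 33 of the 43 members have an entry. Fga lies at chr3:83025903-83026152 on the + strand, Fgb at chr3:83049864-83050113 on the - strand and Fgg at chr3:83007474-83007723 on the + strand, each read 5′ to 3′ toward the gene. GENCODE starts Fga further upstream, at 83026076, so that by that annotation the end of its window, with the ATTAAC in capitals, lies inside the gene. Capitals mark CTGGGA and GTTAAT on either strand, the latter appearing as ATTAAC where it is on the other strand.
Fga: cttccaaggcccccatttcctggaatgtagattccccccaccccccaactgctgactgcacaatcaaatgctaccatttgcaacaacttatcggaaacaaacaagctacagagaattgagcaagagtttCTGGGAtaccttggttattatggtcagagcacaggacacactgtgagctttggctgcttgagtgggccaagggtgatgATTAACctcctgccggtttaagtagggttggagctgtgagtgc
Fgb: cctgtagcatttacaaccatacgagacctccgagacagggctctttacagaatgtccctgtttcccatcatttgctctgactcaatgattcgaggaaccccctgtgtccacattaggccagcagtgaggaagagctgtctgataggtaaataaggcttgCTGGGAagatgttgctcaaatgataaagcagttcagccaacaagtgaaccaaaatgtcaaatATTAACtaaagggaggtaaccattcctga
Fgg: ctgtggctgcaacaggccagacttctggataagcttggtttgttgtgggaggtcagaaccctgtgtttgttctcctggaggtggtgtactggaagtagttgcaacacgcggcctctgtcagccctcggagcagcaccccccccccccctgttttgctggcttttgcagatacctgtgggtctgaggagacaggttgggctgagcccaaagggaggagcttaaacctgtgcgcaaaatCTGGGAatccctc

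CTGGGA was in the window of each of the 3 genes, and 26.998% of 32851 promoters hold it in the same length. GTTAAT was in Fga and Fgb, and 6.43% of promoters hold it. In all, 13 strings were searched on both strands, and those in capitals were chosen after their matches had been seen. The others were CTGGGAA, which overlaps CTGGGA and is in 9.10% of promoters, GTTAAT followed by any base and ATTAAC (0.00913%), TTGCGCAA (0.164%), TTNNGNAA (36.8%), CATTCC (12.6%), GAGGAAG (10.6%) and TTCCTGGAA (0.651%). The last were TTCNNNGAA (7.02%), CAAAGTCCA (0.384%), TGACTCA (4.46%) and GATAAG (6.55%). Among the members, 13 hold CTGGGA and 8 hold GTTAAT, including members that were not low in DKO, such as Klkb1 for CTGGGA and F13b for GTTAAT. N stands for any base. Other strings were shared by the chains as well: TTNNGNAA, CATTCC and TTCNNNGAA were in Fga and Fgb, CTGGGAA in Fgb and Fgg, and GATAAG in Fga and Fgg. A match is a description of letters and shows no binding.

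The terminal pathway, whose components assemble the pore, held the next largest difference in DKO, that of C9. C9, which forms the ring of the pore, stood at 855 CPM in WT, 761 in YAPKO, 741 in TAZKO and 315 in DKO in HCs. DKO was low, with a log2 ratio of -1.90 (95% counting interval -1.94 to -1.86), and the ratio was -2.38, -1.07 and -1.81 in clusters 1, 3 and 5. C8b and C8g give chains of C8. C8b stood at 351 CPM in WT, 332 in YAPKO, 231 in TAZKO and 209 in DKO and C8g at 1064 CPM in WT, 747 in YAPKO, 785 in TAZKO and 792 in DKO. C8b was past 2-fold in TAZKO and DKO, with -1.19 and -1.21, and C8g in TAZKO, with -1.03. In cluster 5 alone, none of these ratios of C8b and C8g was past 2-fold, and none was without centring. C8a, the third chain gene of C8, had log2 ratios of -0.03 in YAPKO, -0.17 in TAZKO and 0.15 in DKO.

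The early steps include the lectins and the proteases that act before C3. Mbl1 is a lectin that binds microbial sugars and stood at 213 CPM in WT, 159 in YAPKO, 180.5 in TAZKO and 145 in DKO. Masp2, the protease that it activates, stood at 227 CPM in WT, 175 in YAPKO, 150.4 in TAZKO and 142 in DKO, and Cfb, the protease of the alternative pathway, at 53.4 CPM in WT, 59.6 in YAPKO, 34.5 in TAZKO and 44.7 in DKO. WT was the highest library for Mbl1 and Masp2, and TAZKO the lowest for Cfb. Past 2-fold were Mbl1 in DKO (-1.01), Masp2 in TAZKO and DKO (-1.19 and -1.14) and Cfb in TAZKO (-1.22). Without centring none of the 3 was past 2-fold, and in cluster 5 Cfb in TAZKO alone was, at -1.04. Fgb, C8b and Masp2 were past 2-fold in TAZKO and DKO, a case the rule for naming had left out, and they were named after their values were seen.

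C3, the component on which the complement pathways meet, stood at 1781 CPM in WT, 2643 in YAPKO, 2108 in TAZKO and 2682 in DKO in HCs. WT was the lowest library in CPM, and relative to the median gene the log2 ratios were 0.14 in YAPKO, -0.35 in TAZKO and 0.13 in DKO. In clusters 1, 3 and 5 the C3 ratios were -0.48, 0.84 and 0.13 in YAPKO, 1.09, 0.36 and -0.41 in TAZKO and -0.02, 1.07 and 0.38 in DKO, so that they depended on the cluster in each library. Serpinc1, the gene of antithrombin, stood at 982 CPM in WT, 963 in YAPKO, 909 in TAZKO and 937 in DKO. These CPM lay close together, while relative to the median gene the log2 ratios were -0.46 in YAPKO, -0.71 in TAZKO and -0.53 in DKO. In cluster 1 they were -1.05, -1.72 and -1.34, and in cluster 5 -0.23, -0.26 and -0.14. The 18 remaining members highest in HCs, C8a and F13b among them, had log2 ratios from -0.57 (F10) to 0.28 (Klkb1) in YAPKO, from -0.80 (F10) to 0.48 (Klkb1) in TAZKO and from -0.87 (Hc) to 0.46 (F11) in DKO. None of the 18 was past 2-fold relative to the median gene, and without centring Klkb1, the gene of plasma prekallikrein, was at 1.08 in TAZKO.

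**Figure D5:**
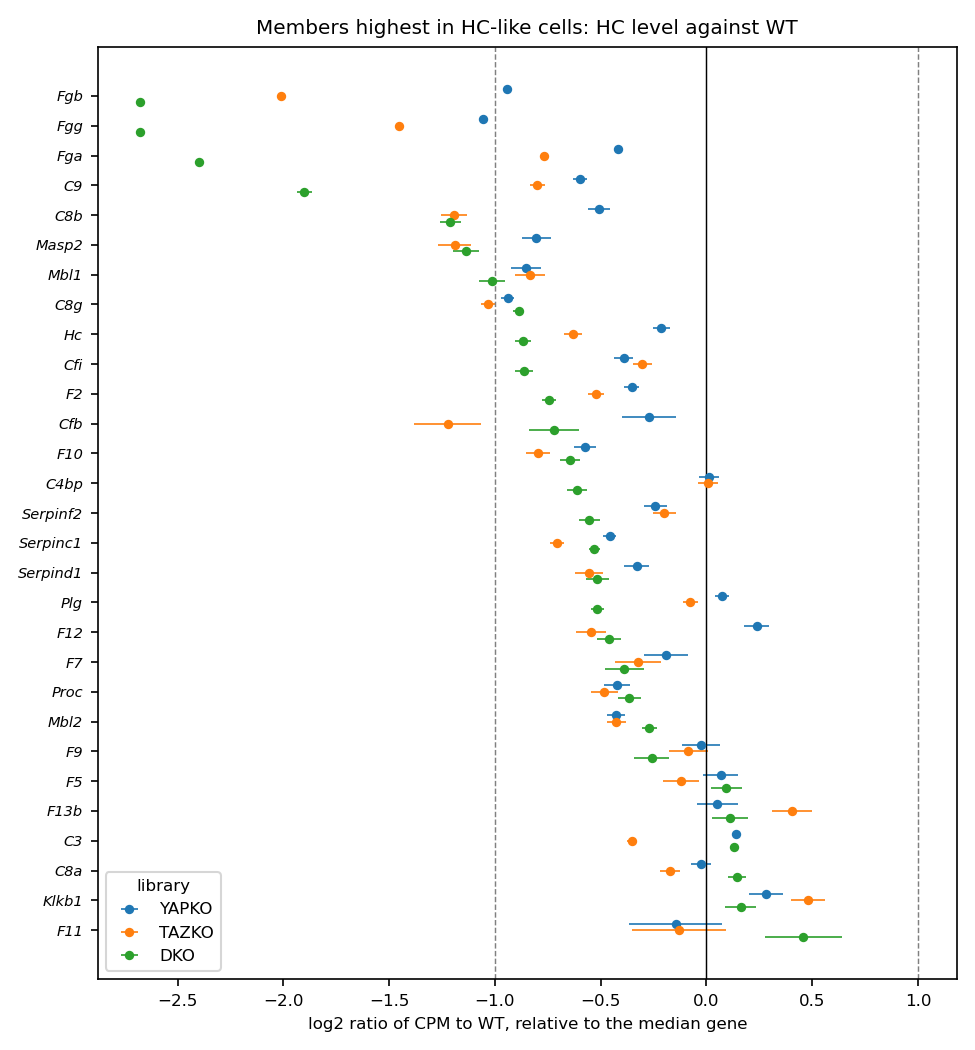
Log2 ratio of CPM in HCs to WT, relative to the median gene (horizontal axis), for the 29 members highest in HCs (vertical axis, ordered by DKO), with 1 point per library, bars for the 95% counting interval and dashed lines at 2-fold. The fibrinogen chains and C9 lie furthest to the left in DKO, from -2.68 for Fgb to -1.90 for C9, and stay below 0 without centring, while the list as a whole shifts to the right by 0.43, 0.59 and 0.46.

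In the other types, counts over the list are given beside the HC RNA that each type carried. Most members counted in ECs and KCs are highest in HCs, and nearly all of these were not above background there. In ECs, 4.83% of all genes in YAPKO, 7.03% in TAZKO and 6.24% in DKO were at least 2-fold off in either direction. Of 38 members, 5 in YAPKO, 8 in TAZKO and 0 in DKO were at least 2-fold higher, where 1.13%, 2.98% and 2.15% of all genes were, and 22, 4 and 22 were at least 2-fold lower, where 3.7%, 4.05% and 4.09% were. The median share of the HC markers in ECs was 5.33% in WT, 1.39% in YAPKO, 4.31% in TAZKO and 1.53% in DKO, and 10 of 10 HC markers had UMIs there, summing to 7231 CPM in WT, 1618 in YAPKO, 6825 in TAZKO and 1998 in DKO. In KCs, where 3.34%, 12.1% and 5.45% of all genes were off in either direction, 0, 12 and 0 of 36 members were higher, where 0.664%, 3.99% and 2.5% of all genes were, and 19, 1 and 4 lower, where 2.67%, 8.09% and 2.95% were. The HC markers summed to 4317 CPM in WT, 1651 in YAPKO, 6559.9 in TAZKO and 4946 in DKO in KCs. HC RNA was thus low in YAPKO in both types and in DKO in ECs, the cases with 19 to 22 members lower. In TAZKO it was above WT in KCs but slightly below WT in ECs, where 8 members were higher, and in DKO it was above WT in KCs, where 0 were higher and 4 lower. The most abundant of these markers was Alb in each library of ECs and in WT and TAZKO of KCs, and Trf in YAPKO and DKO of KCs. In ECs Alb stood at 1382 CPM in WT and 2477 in TAZKO, the opposite direction to the sum of the markers. The part of the HC markers in the counts was not tested. In HSCs, where 3.64%, 6.1% and 4.52% were off in either direction, 0, 4 and 3 of 25 were higher, where 0.785%, 2.51% and 2.64% of all genes were, and 14, 1 and 5 lower, where 2.86%, 3.6% and 1.89% were. The HC markers, 10 of 10 with UMIs and led by Alb, summed to 4971 CPM in WT, 1083 in YAPKO, 6221 in TAZKO and 3076 in DKO in HSCs. In MACs, where 5.63%, 13.6% and 7.89% were off in either direction, 1, 3 and 1 of 18 were higher, where 3.07%, 6.76% and 4.45% of all genes were, and 6, 2 and 6 lower, where 2.57%, 6.82% and 3.44% were. The HC markers, 10 of 10 with UMIs, summed to 5027 CPM in WT, 1866 in YAPKO, 6459 in TAZKO and 2219 in DKO in MACs, led by Alb in WT and TAZKO and by Trf in YAPKO and DKO, and their part in the counts of HSCs and MACs was not tested either.

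The other genes of the pathways, 54 in a list chosen beside the members, were spread more widely. Of these, 18 were highest in HCs and 36 elsewhere. ECs led for Cd55 (1333 CPM on average), which shields cells from complement, and for Tfpi (446), which inhibits the tissue factor pathway. They also led for Cd93 (375), the thrombin receptor F2r (335), the pore inhibitor Cd59a (228) and the C5a receptor C5ar2 (144), and had the highest mean for Mcfd2 (139), which helps export factor VIII. KCs led for the complement receptor Vsig4 (2419) and the ficolin Fcna (2361), and had the highest mean for the C3a receptor C3ar1 (152). HSCs led for the collectins Colec11 (1259) and Colec10 (710.1), the partners of the Masp proteases. BECs led for clusterin, Clu (14853), neutrophils for C5ar1 (292) and Itgam (187), NK cells for Itgb2 (459) and B cells for Cr2 (101). NK cells had the highest mean for Cr1l (123, with ECs at 103) and PDCs for the urokinase receptor Plaur (219). Each of these was the highest type in 3 of 4 libraries. For Itgax, CDCs (101) and neutrophils (97.6) had no clear order, nor did ECs and HSCs (129) for Mcfd2 or KCs and MACs (141) for C3ar1.

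In HCs, 31 of the 54 passed the filter. At least 2-fold higher were 1 in YAPKO, 1 in TAZKO and 0 in DKO, where 2.92%, 4.58% and 5.47% of all genes were, and lower were 1, 5 and 5, where 1.92%, 6.1% and 4.6% were. Cpb2, whose product slows the breakdown of fibrin, had log2 ratios of -1.66 in TAZKO and -1.71 in DKO, from 584 CPM in WT, 458 in YAPKO, 279 in TAZKO and 246 in DKO. Its level was high in WT. Kng1, the gene of kininogen, had a ratio of -1.45 in DKO and Vkorc1, of the vitamin K cycle, -1.19 in TAZKO. Past 2-fold were further Cd59a (-1.05) and Serpina10 (-1.03) in TAZKO, and Pzp (-1.07) and Vtn (-1.03) in DKO. Without centring Cpb2 stayed past 2-fold in TAZKO and DKO, while Kng1, Vkorc1, Cd59a, Serpina10, Pzp and Vtn fell short of it. The list had a median of -0.27 in YAPKO, -0.40 in TAZKO and -0.64 in DKO, and without centring 0.16, 0.20 and -0.18, so that the sign flips in YAPKO and TAZKO. Cd93 and Colec11, which were also counted, are genes of ECs and HSCs and stood under 6 CPM in HCs.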

How the data were processed

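Single-cell 3' libraries of 4 mice, 1 per genotype, were used. The authors aligned reads to mm10 with Cell Ranger (6.0.1 in the paper, 4.0.0 in the matrix headers) and deposited 1 matrix of raw UMI counts per library, with barcode and gene tables (other than counts, these hold names). The paper gives the cell limits in transcripts, and whether genes or UMIs are meant is unsure; genes were used. Cells with 500 to 6000 genes and at most 10% mitochondrial UMIs were kept, log-normalized, corrected by library with an own implementation of Harmony (20 components of 2000 variable genes) and clustered by Louvain (20 neighbors, resolution 0.4). Clusters were named from 131 markers of 17 types. Counts were summed per gene, type and library and scaled to CPM, with exact Poisson, conditional binomial and Clopper-Pearson intervals. Being past the fold means 2-fold or more. The members and lists were chosen with earlier results of these data known. Named are members highest outside HCs, those past 2-fold in HCs in YAPKO and DKO or in 1 library, and the 5 most abundant in HCs, and further pathway genes highest outside HCs with at least 100 CPM or with the largest HC ratios. Alternatives covered the cell limits, clustering, doublets, scaling, filter, fold and background. Intervals were tested on simulated data. Python 3.11.15, numpy 2.4.6, scipy 1.17.1, pandas 2.3.3, scikit-learn 1.9.0, igraph 0.11.9 and matplotlib 3.10.9 were used. Positions came from GENCODE release M21 and promoters from RefSeq.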

Additional observations from a re-analysis of the deposited data

Results flagged for a closer look

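A small group of cells left unnamed and in no comparison (cluster 20, 42 cells, led by Igfbp6, Clec3b, Igfbp5 and Mfap5) had 4 members above their highest named type. Its best list was that of mesothelial cells, with 5 of 5 markers detected, but of its 10 leading genes 0 were on that list and 2 on another, so that the naming rule left it out. C3 averaged 3840 CPM (to 3 digits) there, against 2303 in HCs, with 5489.6 in WT, 2487 in YAPKO, 3726 in TAZKO and 3650.4 in DKO. Thbd averaged 311 CPM, against 134 in ECs, with 447 in WT, 232 in YAPKO, 383 in TAZKO and 180.2 in DKO. C2 averaged 299 CPM, against 82.3 in KCs, with 649 in WT, 91.2 in YAPKO, 299 in TAZKO and 157 in DKO, so that its mean rests much on WT. C4b averaged 283 CPM, against 231 in KCs, with 346 in WT, 224 in YAPKO, 177 in TAZKO and 384 in DKO, of which YAPKO and TAZKO lie below the KC mean. Each library gave 9 to 14 of these cells.

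For 4 results, a member was at least 2-fold higher than in WT in one type and at least 2-fold lower in another type of the same library, and the difference was not tested, with 1 library per genotype. C6 in TAZKO was higher in MACs and lower in HCs, a difference of 3.79 on the log2 scale, from 90 UMIs in MACs of TAZKO and 21 in those of WT. C6 in DKO was higher in MACs and lower in ECs, by 2.48. In YAPKO, C1qa differed by 3.11 and C1qc by 2.53 between ECs, where they were higher, and HSCs, where they were lower. The KC markers summed to 1169 CPM in WT and 409 in YAPKO in HSCs, and to 314 and 279 in ECs, and their part in this was not tested. C1q in ECs and HSCs, and C6 in MACs and ECs, were not above the background of KC RNA in every library, as the rule asks. In ECs, C1qa and C1qc were above it in 1 library, reaching 6.66 and 3.99 times the background, and C6 in 2, while C6 in MACs was above it in 0. Whether these cells make the genes was not tested.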

How the results depend on the processing

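No paired analysis was possible because each genotype has 1 library. The highest type was the same for 39 to 43 of the 43 members under the 7 alternatives for cells and clusters, and no named ratio past 2-fold changed sign where an alternative gave it a value (with limits read as UMIs, no cluster was named MAC, so F13a1 had none), though 9 of 19 stayed past it without centring and 6 of 14 in HC cluster 5. With the cell limits read as UMIs, 2 members were highest in other types (4 before), 1, 1 and 2 were at least 2-fold higher in HCs of YAPKO, TAZKO and DKO, 6, 13 and 12 lower, the median log2 ratio of the members in HCs of YAPKO to WT was -0.0899, and 10 pairs were above background. By marker score 47 pairs were, and with the highest source share 14. The share of all genes with the cell limits read as UMIs is not given, so the counts there are not compared with it. Without centring, 0, 1 and 4 members were lower and 2 higher in TAZKO, and the medians were 0.20, 0.10 and -0.0588, reversed in YAPKO and TAZKO. With a total lacking the 50 most abundant genes, 0 were lower in YAPKO and 3 in TAZKO, where 1.16% and 2.74% of all genes were, and the medians were -0.0266, -0.15 and -0.38. In DKO, 5 of the 29 members highest in HCs were lower on that scale, where 3.55% of all genes were. With at least 20 UMIs, 2, 2 and 1 were higher. At 1.5-fold, 6, 14 and 17 were lower, by construction. The shares of all genes at this filter and this fold are not given, so these counts are not compared with them. The next settings were chosen after seeing the data. In HC cluster 1 alone, 28, 18 and 32 were lower, 4 higher in TAZKO, and the medians were -1.34, -0.86 and -1.49. In cluster 3, 3 were lower and 1 higher in YAPKO, where the median reversed to 0.0176, 1 was higher in DKO and its median was -0.33. Of all genes in cluster 3, 4.89% in YAPKO and 7.03% in DKO were higher. In cluster 5, 0, 3 and 4 were lower, with medians of -0.0450, -0.28 and -0.18. For these results the cause was not tested. The few BECs, and large-vessel ECs, limit what depth can show.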
